A study of Rattus norvegicus with 8 samples.

Results

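Transcripts of 10 genes of the ATF4 amino acid stress response were followed in rat ovary: Atf4, Ddit3, Trib3, Asns, Psat1, Phgdh, Psph, Shmt2, Sesn2 and Aars. Each gene was taken by its name on the array, which gave 1 probe per gene and 10 of the 21926 gene names that could be tested. Immature rats of 26 days had received 50 IU of PMSG, a gonadotropin from pregnant mares, under the skin dissolved in phosphate buffer with albumin (volume 0.2 ml), or that buffer alone. Ovaries were collected 48 h later, when the rats were 28 days old, and RNA of each of 4 control and 4 PMSG samples was put on an Agilent array of a single slide. Both groups were of female rats and the same age, the labels read here name no strain, and nothing in them says whether a sample came from 1 animal or from a pool, so p-values measure only the spread between these samples. A level is a probe's log2 signal minus the 75th percentile of its array, and a difference is the PMSG-labelled mean minus the control-labelled mean.

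ATF4 is a transcription factor whose protein is made mainly when the initiation factor eIF2 is phosphorylated by one of its stress kinases, so the level of Atf4 mRNA is not a measure of its protein. Its known targets rebuild the supply of amino acids through asparagine and serine synthesis, amino acid transporters and aminoacyl-tRNA synthetases, and they include the stress regulators Ddit3 (CHOP), Trib3 and Sesn2. In the ovary the eIF2 branch has been studied mostly in follicle growth, follicular atresia and regression of the corpus luteum.

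Of the 10 genes, 5 were lower and 1 was higher on PMSG-labelled arrays (limma, adjusted p under 0.05), and 4 did not pass. Asns, Shmt2, Phgdh, Aars and Psph fell, from 5.50-fold to 1.35-fold, and Ddit3 rose 2.01-fold. Atf4 itself, Trib3, Psat1 and Sesn2 did not pass the test. Over all 25303 tested probes 34.2% passed, 16.6% lower and 17.6% higher, so that on this slide a call on its own was common. The 4 control and 4 PMSG values did not overlap for the same counts, 6 of the 10 genes (5 lower, 1 higher) and 36.6% of all probes (18.6% lower, 17.9% higher). Differences of at least 2-fold that passed were found for 3 of the 10 genes and for 11.8% of all probes. The median difference was -0.30 over the 10 genes and 0.11 over all tested probes. In whole ovary, fewer cells of a type and less RNA per cell cannot be told apart.

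Directions are written by the array labels throughout, because some genes known to respond to gonadotropin ran the other way. These were chosen after their values were seen. Star, the cholesterol carrier of steroid synthesis, differed by -2.75 (limma, adjusted p = 0.00541), and Lhcgr, the receptor for luteinising hormone, by -1.93 (adjusted p = 0.00114). On PMSG arrays the level of Star ran from 0.99 to 3.81, with array 2 the highest. Amh, a product of small growing follicles, was higher by 3.03 (adjusted p = 2.61e-04). Not all such genes differed: Hsd3b1, in the same list of 7 luteal markers as Star, stood at 0.07 (limma, adjusted p = 0.719). In that list 6 were lower. The labels were kept as given, and whether those of the groups were exchanged was not settled by the files used here. If they were, every direction given here would be turned.

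The probe that carries the Atf4 values and the one with the largest fall, for Asns, are shown first, since every value of a gene below rests on 1 such 60-base probe. The letters are those of the scanner files. The Atf4 probe lies at chr7:118538840-118538899 on the plus strand and the Asns probe at chr4:32759136-32759195 on the minus strand, both on rn4. An exon annotation of that build was not used here.
Atf4 probe: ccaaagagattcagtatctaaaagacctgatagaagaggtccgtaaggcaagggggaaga
Asns probe: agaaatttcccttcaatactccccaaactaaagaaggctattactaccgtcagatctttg

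Promoter windows of RefSeq (assembly GRCr8), from 250 bases before to 50 bases after the start site, were searched on both strands for TGATGNAA, the core of the C/EBP-ATF response element that ATF4 is known to bind. N stands for any base, and the reverse complement is TTNCATCA. All 10 genes had a window, and Trib3 and Aars (Aars1 in RefSeq) held a match. Among all 33469 windows 1332 held one (3.98%), and among 106 windows of other genes of the pathway 17 did (16.0%). The stretches before the start site are shown for both genes and, for comparison, for 3 further cytosolic tRNA synthetases with such a match, because these enzymes are the pathway list in which the largest share of genes fell. All are written 5′ to 3′ on the strand of the gene, with the match in capitals.
Aars, chr19:55908344-55908403, plus strand: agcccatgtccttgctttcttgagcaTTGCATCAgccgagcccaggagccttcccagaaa
Tars, chr2:62114803-62114855, minus strand: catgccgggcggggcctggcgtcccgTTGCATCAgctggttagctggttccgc
Iars, chr17:15193653-15193702, minus strand: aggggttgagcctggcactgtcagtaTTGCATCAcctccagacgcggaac
Mars, chr7:65023754-65023796, minus strand: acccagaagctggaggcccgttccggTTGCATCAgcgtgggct
Trib3, chr3:161275534-161275580, minus strand: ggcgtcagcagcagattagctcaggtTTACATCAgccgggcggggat

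The printed match begins 112 bases before the start site in Aars, 27 in Tars, 24 in Iars, 17 in Mars and 21 in Trib3. Aars held another match, TTTCATCA, which begins 9 bases after the start site and is not printed. The 4 printed synthetases share the same 8 letters, and Trib3 differs at the free base. Nars, a further cytosolic synthetase, held a match that begins 14 bases before the start site and is not printed. On the strand of the gene it reads TGATGCAA, the reverse complement of those shared letters. A match is a string of letters and not a measured binding site, and where there was none, only these letters were missing from this window. Of all 19 pathway genes with a match, the 10 genes included, 9 fell, 1 rose and 9 did not pass. Over all tested probes 16.6% fell and 17.6% rose. Whether a match goes with a fall was not tested. The 6 other cytosolic synthetases with a match all fell, as did 7 of the 10 without one and 2 of the 3 for which no window was matched.

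Atf4 had levels of 3.71, 3.61, 3.48 and 3.70 on control arrays 1 to 4 and of 3.45, 3.62, 3.46 and 3.34 on PMSG arrays 1 to 4. The groups overlapped: the second PMSG array lay above control array 3 and level with control array 2. The mean was 3.62 ± 0.11 (SD, n = 4) against 3.47 ± 0.12 (SD, n = 4), a difference of -0.16 with a 95% interval of -0.39 to 0.08 (limma, adjusted p = 0.257). A fall of more than 0.39 or a rise of more than 0.08 on the log2 scale lies outside that interval. Atf4 is the one gene of the 10 with 10 spots per array, of which 8 to 10 were usable. Within an array these spots had a median SD of 0.03, against 0.11 and 0.12 between arrays of a label. With 1 array per sample, the spread between samples and that of labelling and hybridization cannot be told apart.

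**Figure D1:**
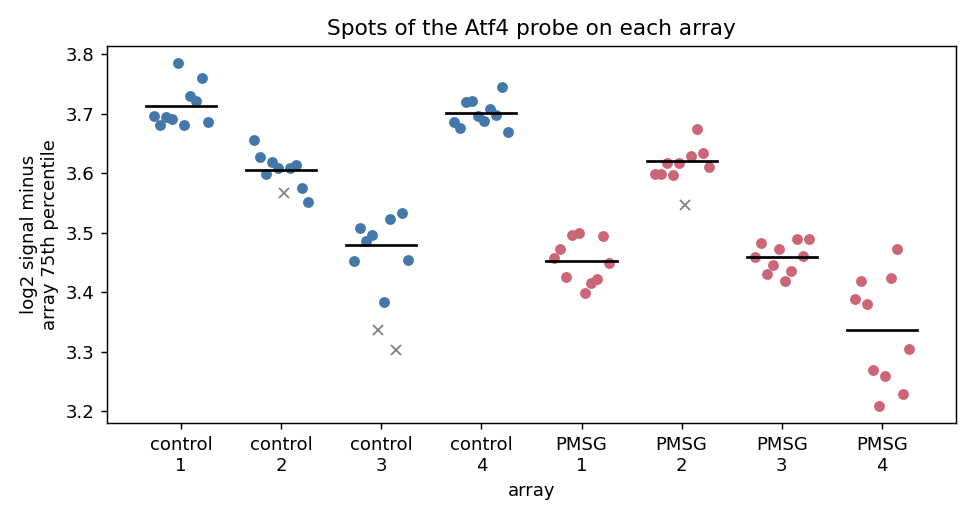
Level of each spot of the Atf4 probe (y axis, log2 signal minus the array's 75th percentile) on the 8 arrays (x axis); circles are usable spots, crosses the 4 spots called as outliers, and lines the array means. Arrays of both labels lie between 3.34 and 3.71 on average, with more distance between arrays than within most of them.

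The kinases that phosphorylate eIF2 were measured on the same arrays. Eif2ak4 (GCN2), the kinase that senses uncharged tRNA, had levels of 0.89, 0.84, 0.81 and 0.88 on control arrays and of 0.19, 0.21, -0.26 and 0.11 on PMSG arrays. It was lower on all 4 PMSG-labelled arrays, by -0.80 (SE 0.12, limma, adjusted p = 0.00177). Eif2ak1 (HRI), the haem-sensing kinase, differed by -0.09 (adjusted p = 0.434), and Eif2ak2 (PKR), the kinase for double-stranded RNA, by -0.24 (adjusted p = 0.464). Control array 4 was high for Eif2ak2, at 0.13 against -1.07 to -0.75 on the other controls, and without it the difference was 0.01. A second probe of Eif2ak2 stood at -0.73 without overlap between the labels (adjusted p = 0.108). Eif2ak3 (PERK), the kinase of the endoplasmic reticulum, stood 0.21 above control (adjusted p = 0.117). Over the list of eIF2 kinases, phosphatase regulators and eIF2B subunits, 4 of 15 genes fell, 1 rose and 10 did not pass. This list had 33.3% of its genes called, near the 34.2% of all tested probes. Its other named genes are Eif2b3, a subunit of the exchange factor of eIF2, at -0.67 (adjusted p = 0.00126), and Ppp1r15b, a phosphatase regulator, at -0.45 (adjusted p = 0.117). Ppp1r15b passed after quantile normalization (-0.66, limma, adjusted p = 0.00816) and after median centring (-0.61, adjusted p = 0.0193), and stood at -0.17 with normexp background correction and at -0.27 without PMSG array 4. Without control array 1 or without control array 2, 3 of the 15 passed.

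Ddit3 encodes CHOP, a transcription factor induced when the eIF2 branch stays active and known for promoting cell death. Its levels were 1.28, 0.90, 1.32 and 0.77 on control arrays and 2.25, 1.96, 2.02 and 2.08 on PMSG arrays, with no overlap. The mean went from 1.07 ± 0.27 (SD, n = 4) to 2.08 ± 0.12 (SD, n = 4), a difference of 1.01 with an interval of 0.67 to 1.35 (limma, adjusted p = 0.00147). Among the 10 genes it was the one that passed in the upward direction. Its probe lies at chr7:67252505-67252564 (rn4, plus strand).

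Trib3, a pseudokinase that is a target of ATF4 and CHOP and restrains both, did not follow Ddit3. Its levels were -2.57, -2.91, -2.69 and -2.85 on control arrays and -2.64, -2.95, -2.61 and -3.40 on PMSG arrays, and the groups overlapped. The difference was -0.15 with an interval of -0.58 to 0.29 (limma, adjusted p = 0.564). PMSG array 4 was the lowest, and without it the difference was 0.02, so the sign for Trib3 rests on that array. Its probe lies at chr3:142664936-142664995 (rn4, minus strand).

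Sesn2, a leucine sensor that holds back the growth kinase complex mTORC1, had a low raw signal on every array, which ran from 42.5 to 62.9, against 9.89 to 13.7 for the lowest spot called well above background on an array. Its probe carries no rn4 position in the scanner files. The levels were -4.10, -4.36, -4.56 and -4.59 on control arrays and -4.05, -4.03, -3.88 and -4.22 on PMSG arrays. PMSG array 4 fell below control array 1, so the groups overlapped there. The difference of 0.36 (interval 0.05 to 0.68) had an unadjusted p of 0.0293 and an adjusted p of 0.0743 (limma). Without control array 1 it was 0.46 (adjusted p = 0.0324), and without PMSG array 4 it was 0.42 (adjusted p = 0.0449), so the call on Sesn2 depends on either array.

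Asns, asparagine synthetase, is the enzyme most often used as a readout of the amino acid response. It had levels of 1.04, 1.56, 1.82 and 2.20 on control arrays and of -1.10, -0.57, -0.61 and -0.93 on PMSG arrays. The lowest control array stood 1.61 above the highest PMSG array, although the control arrays themselves spread more than for any other of the 10 genes. The control mean of 1.66 ± 0.49 (SD, n = 4) compared with a PMSG mean of -0.80 ± 0.26 (SD, n = 4), a difference of -2.46 with an interval of -3.03 to -1.89 (limma, adjusted p = 3.04e-04). Asns ranked 127 from the lowest among the differences of all 25303 tested probes. When each array was left out in turn, the difference stayed between -2.66 and -2.28.

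Aars, the cytosolic alanyl-tRNA synthetase, charges alanine onto its tRNA. Its levels were 3.33, 3.19, 3.11 and 3.25 on control arrays and 2.55, 2.47, 2.65 and 2.34 on PMSG arrays. The groups did not overlap, and the difference was -0.72 (interval -0.96 to -0.48, limma, adjusted p = 0.00126), a fold of 1.65. The Aars probe maps to chr19:40974359-40974418 (rn4, plus strand). Aars2, the mitochondrial enzyme for the same amino acid, differed by -0.23 with an interval of -0.56 to 0.10. Aarsd1, described as holding an alanyl-tRNA synthetase domain, was found by that description after the values were seen. It went the other way, at 0.46 without overlap between the labels (limma, adjusted p = 0.00871).

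The serine pathway turns a glycolytic intermediate into serine in 3 steps, by Phgdh, Psat1 and Psph in that order, and Shmt2 then splits serine into glycine and a one-carbon unit in mitochondria. The first and last of the 3 enzymes fell, as did Shmt2, and the middle one did not pass. Phgdh, the entry enzyme, had levels of 4.98, 4.70, 5.05 and 4.83 on control arrays and of 3.91, 3.79, 4.26 and 3.70 on PMSG arrays, without overlap. The difference was -0.98 with an interval of -1.31 to -0.64 (limma, adjusted p = 0.00157), a fold of 1.97. The Phgdh probe maps to chr2:193147943-193148002 (rn4, minus strand). The array also names 3 loci described as like Phgdh, found by their descriptions after the values were seen, with differences of -1.10, -0.89 and -1.18. No run of 15 bases is shared between their probes and the Phgdh probe, but transcripts of near copies can reach the same probe, so the value of Phgdh is uncertain to that extent.

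Psat1, the aminotransferase of the second step, had levels of 1.67, 1.60, 2.10 and 1.69 on control arrays and of 1.78, 1.79, 1.89 and 2.13 on PMSG arrays. Control array 3 and PMSG array 4 were the highest of their labels, and the groups overlapped. The difference was 0.13 with an interval of -0.19 to 0.46 (limma, adjusted p = 0.482). Its probe lies at chr1:219268422-219268481 (rn4, minus strand).

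Psph, the phosphatase that releases serine, had levels of 0.30, 0.11, 0.31 and 0.16 on control arrays and of -0.24, -0.27, -0.23 and -0.13 on PMSG arrays. Every control array was above 0 and every PMSG array below it. The fall was the smallest of the called ones, at -0.44 (interval -0.64 to -0.23, limma, adjusted p = 0.00739) or 1.35-fold and the SDs within labels were 0.10 and 0.06. The position of the probe is chr12:27969823-27969882 (rn4, minus strand).

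Shmt2 had levels of 1.87, 1.79, 1.70 and 1.81 on control arrays and of 0.44, 0.50, 0.53 and 0.52 on PMSG arrays. The mean went from 1.79 ± 0.07 (SD, n = 4) to 0.50 ± 0.04 (SD, n = 4), the least spread within labels among the 10 genes. The difference was -1.29 with an interval of -1.49 to -1.10 (limma, adjusted p = 6.04e-05), the lowest adjusted p of the 10, and a fold of 2.45. Its probe lies at chr7:67494744-67494803 (rn4, minus strand), on the same chromosome as those of Atf4 and Ddit3.

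**Figure D2:**
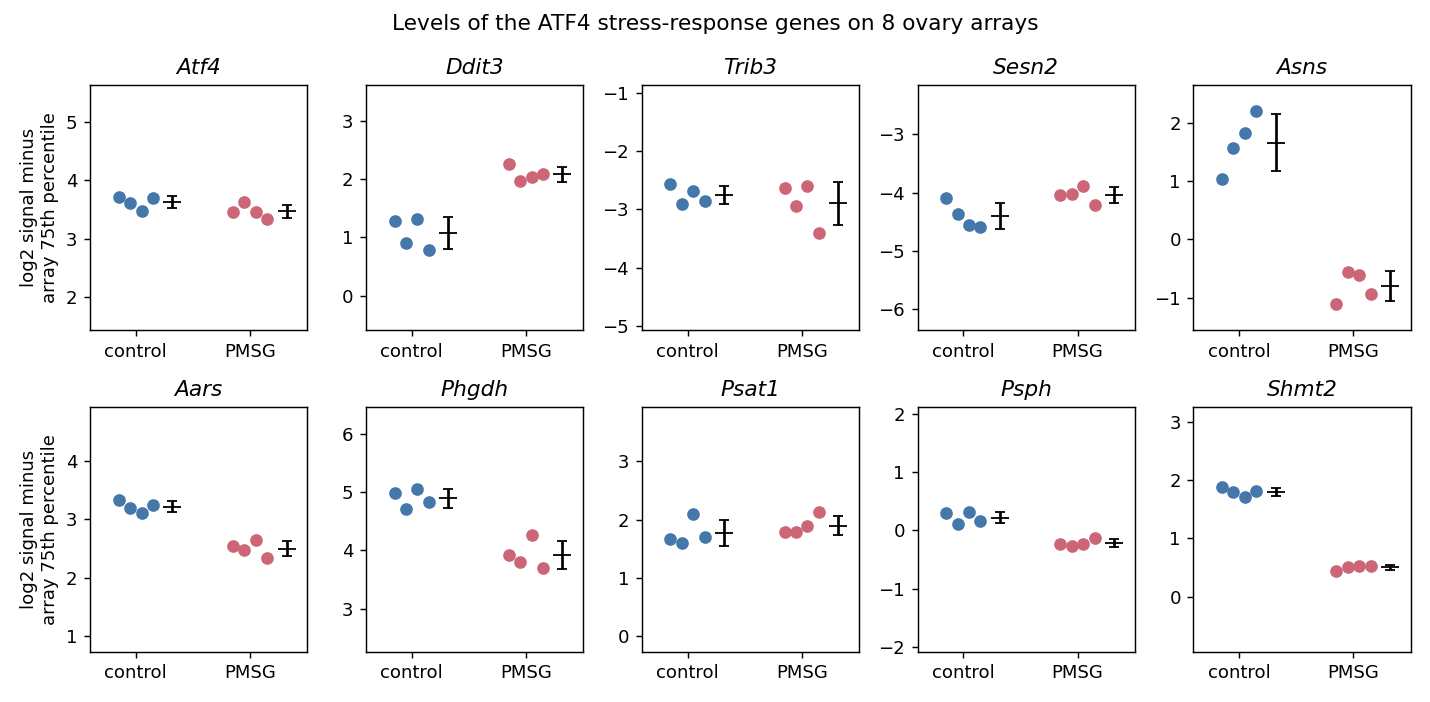
Level of each of the 10 genes (y axes, log2 signal minus the array's 75th percentile, each panel spanning the same range of log2 units) on the 4 control-labelled and 4 PMSG-labelled arrays; points are arrays and bars the mean ± SD. Asns, Aars, Phgdh, Psph and Shmt2 are lower on all 4 PMSG arrays than on any control array, Ddit3 is higher on all 4, and the other 4 genes overlap.

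**Figure D3:**
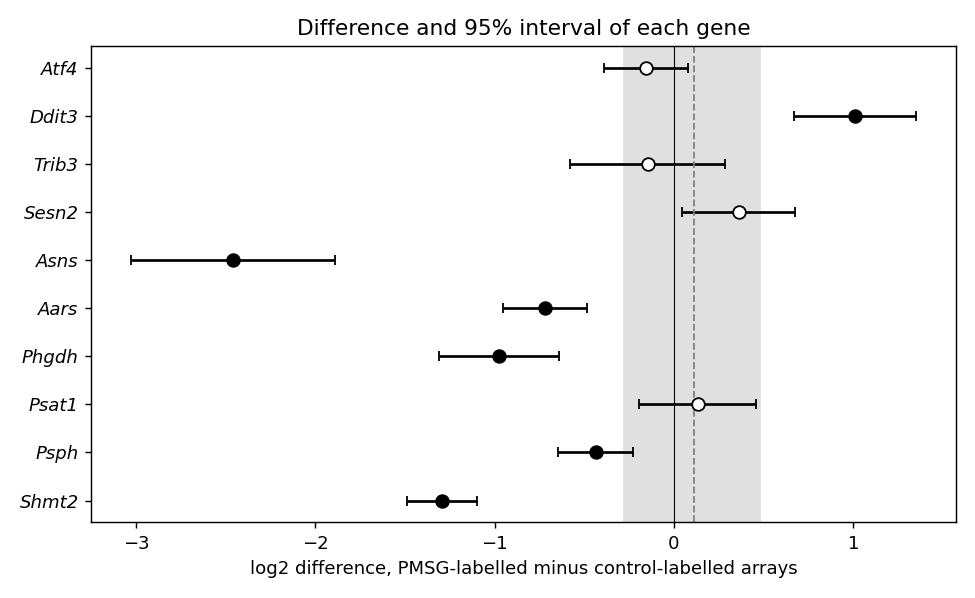
Difference of each gene (x axis, log2, PMSG-labelled minus control-labelled) with its 95% interval from limma; filled circles passed at an adjusted p under 0.05, the dashed line is the median of all tested probes (0.11) and the grey band runs from their 25th to their 75th percentile (-0.28 to 0.48). Asns at -2.46 and Shmt2 at -1.29 lie farthest below the band, and Ddit3 at 1.01 lies above it.

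The slide holds the arrays in 2 rows, with 2 arrays of each label in each row, and the differences were recomputed within a row. In the first row Asns differed by -2.47, Shmt2 by -1.28, Phgdh by -0.74, Aars by -0.66, Psph by -0.38 and Ddit3 by 1.15. In the second row the same genes differed by -2.45, -1.30, -1.21, -0.78, -0.49 and 0.86. These 6 kept their direction in both rows. That follows from the lack of overlap between the labels on the 8 arrays, so it adds no support. With 2 arrays per label, 3 of the 10 genes passed in the first row (Asns, Shmt2 and Ddit3), where 13.2% of all probes did, and 0 in the second, where 0% did. Without adjustment, 6 of the 10 had a limma p under 0.05 in each row. The share of all probes at that unadjusted level was not counted, so this count has no background beside it. With the row as a block in the fit of all 8 arrays, 6 passed again, as did 8124 of the 25303 tested probes.

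A log ratio of 2 genes on the same array does not depend on the constant subtracted from that array. In all, 12 such ratios were taken after the values of the genes had been seen, so they are a description with no test, and they were not recomputed after quantile normalization. Relative to Atf4, the mean log2 ratio differed between labels by -2.30 for Asns, -1.14 for Shmt2, -0.82 for Phgdh, -0.56 for Aars, 0.52 for Sesn2 and 1.17 for Ddit3. In each of these 6 ratios the 4 PMSG-labelled arrays did not overlap the 4 control-labelled ones. Asns, Shmt2, Phgdh, Aars and Ddit3 did not overlap on their own either, so their ratios are no separate evidence. The share of all probes whose ratio to Atf4 does not overlap was not counted. For Psph over Atf4 the difference was -0.28, for Psat1 over Atf4 0.29 and for Trib3 over Atf4 0.01, and these 3 ratios overlapped.

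Within the serine pathway, Phgdh over Psat1 had a log2 ratio of 3.13 ± 0.15 (SD, n = 4) on control-labelled and 2.02 ± 0.34 (SD, n = 4) on PMSG-labelled arrays, a difference of -1.11. For Psph over Psat1 the difference was -0.57 and for Phgdh over Psph -0.54. The values of the 2 labels did not overlap in any of these 3 ratios.

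**Figure D4:**
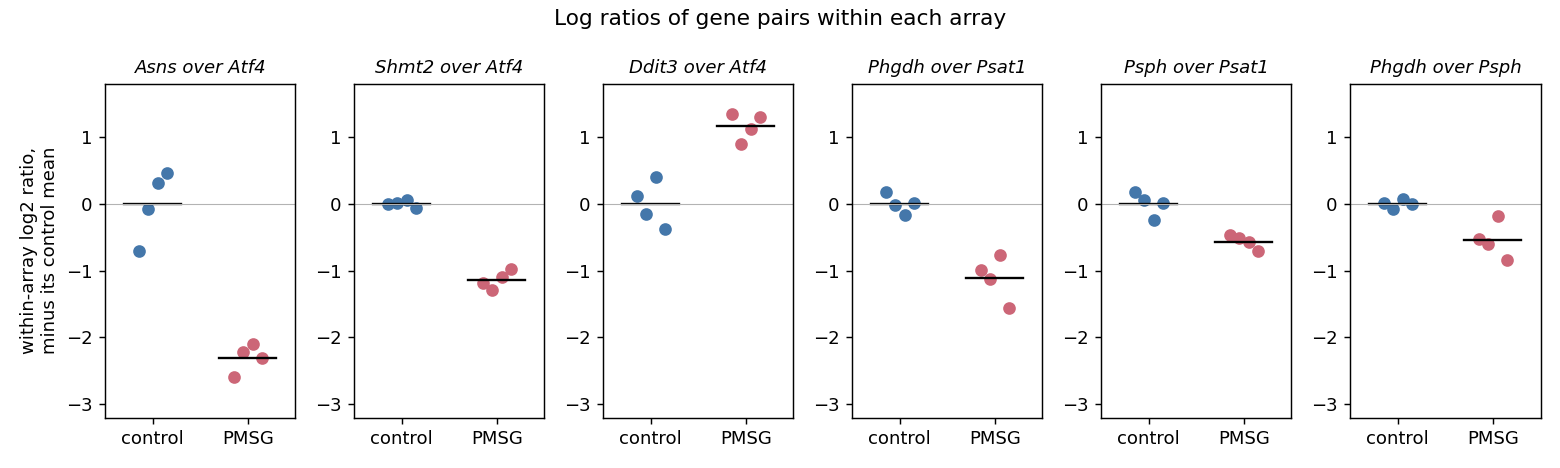
Within-array log2 ratio of 6 gene pairs, each minus its mean over the control-labelled arrays (y axes), for 4 control-labelled and 4 PMSG-labelled arrays; points are arrays and lines the means. The 6 pairs were picked from the 9 of 12 in which the labels do not overlap, so their separation follows from that choice. Differences run from -2.30 for Asns over Atf4 to 1.17 for Ddit3 over Atf4.

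The rest of the pathway was described from lists of other genes, in which only the 3 largest differences of a list are named. In serine, glycine and one-carbon metabolism 9 of 17 genes fell, 3 rose and 5 did not pass. That is 70.6% called, against 34.2% of all tested probes. After quantile normalization 9 fell and 2 rose, and after median centring 9 fell and 1 rose. The largest was that of Aldh1l1, the cytosolic formyltetrahydrofolate dehydrogenase, at -2.31 (SE 0.14, limma, adjusted p = 5.21e-05). Mthfd2, the mitochondrial folate enzyme that follows Shmt2, stood at -1.66 (SE 0.25, limma, adjusted p = 0.00149). Gcat, glycine C-acetyltransferase, stood at -1.19 (SE 0.15, limma, adjusted p = 8.06e-04). Both further probes of Mthfd2 fell as well, by -2.47 and -1.72. The list's median was -0.42, against 0.11 over all tested probes.

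Of the cytosolic tRNA synthetases other than Aars, 15 of 19 fell, 0 rose and 4 did not pass, with a median of -0.50. Under quantile normalization 12 of them fell and 1 rose. Yars fell by -0.86, Lars by -0.79 and Vars by -0.78, and the 3 synthetases whose promoter stretches are printed above, Tars, Mars and Iars, by -0.69, -0.48 and -0.30. The highest value in the list was 0.14, and 78.9% of its genes were called, against 34.2% of all tested probes. Of the mitochondrial synthetases, 8 of 16 fell and 8 did not pass, led by Pars2 at -0.74, Mars2 at -0.73 and Sars2 at -0.54. That is 50% called. The mitochondrial count was 4 without control array 1, 5 without control array 4 and 5 without PMSG array 1. Mars2 lost its call without control array 1, 2 or 4 or PMSG array 1 or 3, with adjusted p from 0.0528 to 0.0699 (limma), and with normexp background correction it stood at -0.26.

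Among other genes of amino acid synthesis 6 of 15 fell and 1 rose. That is 46.7% called, against 34.2% of all tested probes. The named ones were Got1, the cytosolic aspartate aminotransferase, at -1.65, Bcat1, which takes the amino group from branched-chain amino acids, at -1.35, and Gpt2, the mitochondrial alanine aminotransferase, at -1.22 (-0.54 with normexp background correction). Of 8 amino acid transporters 3 fell and 1 rose, where 16.6% of all tested probes fell and 17.6% rose. Slc7a11, the cystine carrier, differed by -1.25 (limma, adjusted p = 0.00165), Slc7a1, the cationic amino acid carrier, by -0.66 (adjusted p = 0.00415), and Slc3a2, the heavy chain that several carriers share, by -0.52 (adjusted p = 0.0174). A second probe of Slc7a1 stood at 0.43 and did not pass, so its probes disagree.

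Of the other stress genes known as ATF4 or CHOP targets 4 of 16 were lower, 2 were higher and 10 did not pass. That is 37.5% called, near the 34.2% of all tested probes, and after quantile normalization 6 were lower and 3 higher. Ddit4, an inhibitor of mTORC1, fell by -2.03 (SE 0.27, limma, adjusted p = 9.34e-04), and its second probe by -2.29. Nupr1, a stress-induced nuclear protein, rose by 1.79 (SE 0.20, adjusted p = 4.11e-04), and Txnip, the thioredoxin-binding protein, by 1.38 (SE 0.23, adjusted p = 0.00273). Nupr1 and Txnip were the 2 of these 16 genes that rose, where 17.6% of all tested probes rose. A link of either to Ddit3 was not tested.

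ATF6 and IRE1 lead the branches of the unfolded protein response that do not act through eIF2. There, 8 of 15 genes fell, 0 rose and 7 did not pass, with a median of -0.42. That is 53.3% called, against 34.2% of all tested probes. Dnajc3, an inhibitor of PERK and a chaperone, differed by -1.13, and Edem1 and Sel1l, both in the degradation of misfolded proteins, by -0.99 and -0.75. A second probe of Sel1l stood at -0.80 and did not pass (limma, adjusted p = 0.134). Among 8 paralogs of the 10 genes 1 fell, Asnsd1 at -0.34 (limma, adjusted p = 0.0284), while Trib1 stood at -0.76 (adjusted p = 0.0544) and Sesn1 at -0.46 (adjusted p = 0.0816). The share of paralogs called, 12.5%, was below the 34.2% of all tested probes. Trib1 was well above background on 2 of the 4 PMSG arrays. It stood at -0.04 with normexp background correction (adjusted p = 0.795) and passed in 6 alternatives, among them quantile normalization (-1.08, adjusted p = 0.0186), median centring (-0.93, adjusted p = 0.0222) and the omission of control array 1 (-0.91, adjusted p = 0.0419) or PMSG array 3 (-0.93, adjusted p = 0.0301). The paralog count was 0 without control array 2 or 4 or PMSG array 1 or 2, and 2 without PMSG array 3. Asnsd1 also lost its call without control array 1 (limma, adjusted p = 0.0763). The same held after quantile normalization (-0.26, limma, adjusted p = 0.0655) and with replicate number as a block (adjusted p = 0.0756). A second probe of Asnsd1 stood at -0.40 without overlap between the labels (limma, adjusted p = 0.00692).

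**Figure D5:**
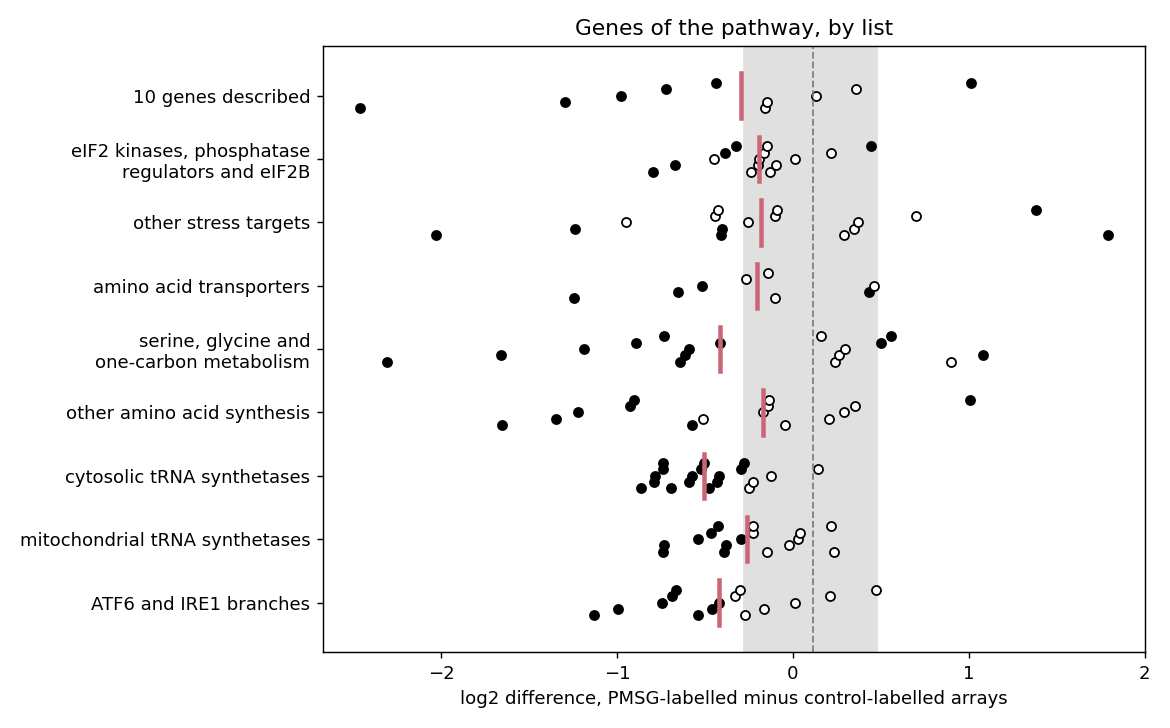
Difference of every tested gene (x axis, log2, PMSG-labelled minus control-labelled) in the 10 genes and in 8 lists of other pathway genes (rows); filled circles passed in limma at an adjusted p under 0.05, red bars are list medians, and the dashed line and grey band give the median and the 25th to 75th percentile of all tested probes. Filled circles in the tRNA synthetase rows and in the ATF6 and IRE1 row all lie below 0.

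Centring arrays on another percentile shifts all differences by the same amount, and quantile normalization moves them by unequal amounts. The median difference of all tested probes was 0.11 as scaled here, 0.03 after quantile normalization and -0.05 after centring arrays on their median. Of all called probes, 51.4% were higher on PMSG-labelled arrays as scaled here and 34.5% after median centring. In each of the 3 scalings 5 of the 10 genes fell and 1 rose. Psat1, which did not pass, stood below 0 at -0.04 after median centring.

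Markers of ovarian and other cells also differed between the labels, and their part in the values of the 10 genes was not tested. Over all tested probes 16.6% were lower and 17.6% higher. Of 7 markers of luteal and luteinising cells 6 were lower on PMSG-labelled arrays, where their summed linear level was 118 to 178, against 275 to 307 on control-labelled arrays. All 9 oocyte markers were higher, with summed levels of 13.3 to 26.9 against 3.66 to 6.53. Of 7 granulosa markers 2 were higher and 1 lower (104 to 135 against 106 to 197), and of 5 theca markers 2 were higher (27.2 to 51.7 against 34.9 to 43.6). Epithelial markers were higher in 4 of 8 (30.3 to 44.9 against 19.0 to 25.0), leukocyte markers in 4 of 6 (12.1 to 13.6 against 7.97 to 9.85), and fibroblast and smooth muscle markers in 3 of 6 (97.6 to 133 against 89.2 to 117). Endothelial markers were lower in 4 of 7 and higher in 1 (17.0 to 18.5 against 20.9 to 24.4). Of 4 red blood cell markers 1 was lower (55.6 to 90.5 against 70.3 to 96.8), and of 5 adipocyte markers 0 passed (17.3 to 50.5 against 5.66 to 46.0). Markers of granulosa cells, theca cells and oocytes were well above background on all 8 arrays, and Akr1c3, Muc1 and Tek were below it on some.

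The 10 genes had different nearest neighbours among 22942 probe profiles over the 8 arrays, each centred on its own mean. Likeness was the mean absolute difference in log2 units. Nearest to Atf4 was Slc25a3 (0.03), to Ddit3 Cd302 (0.08), to Trib3 Slc35d1 (0.05) and to Sesn2 RGD1563194 (0.06). Nearest to Asns was Podnl1, at 0.16 the loosest of these matches, and to Aars Fam73b (0.04). Nearest to Psat1 was Maf (0.05), to Psph Rars2 (0.04), to Shmt2 Mocs2 (0.06) and to Phgdh a probe without a gene name (0.07). Of these neighbours Rars2, a mitochondrial arginyl-tRNA synthetase, belongs to one of the lists, and none of the 10 genes was nearest to another of them.

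The 75th percentile of the signal was 1002 to 1103 on control-labelled arrays and 769 to 1082 on PMSG-labelled ones, with PMSG array 3 the lowest. Array weights estimated by limma ran from 1.35 to 1.95 for control-labelled and from 0.28 (array 4) to 1.21 for PMSG-labelled arrays, and without PMSG array 4 the called probes numbered 11301 in place of 8658. Between 80.8% and 84.6% of probes per array were well above background, and no spot was saturated. The mean correlation of an array with the others of its label was 0.983 to 0.991, and with arrays of the other label 0.971 to 0.975. Every array detected all 10 probes above background, so none of them passed the filter through 1 label alone.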

How the data were processed

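Per the file headers, spots were read with Agilent Feature Extraction 11.5.1.1 and placed on rn4. Per the labels' protocols, cRNA labelled with Cy3 was made from 500 ng of RNA per sample with an oligo-dT primer. The deposited scanner files hold the processed intensity of each spot, with calls for outliers, saturation and background. A value table was deposited as well, in log2 units, and set against the scanner files it is log2 signal minus each array's 75th percentile, with column medians of -3.21 to -2.82. Columns not used numbered 0.

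Control and outlier spots were left out and log2 intensity was averaged per probe (30367 probes, 17 dropped). The 75th percentile of each array was subtracted. Probes well above background on at least 4 of 8 arrays were tested (25303) with limma 3.58.1 in R 4.3.3 (lmFit, eBayes, no covariates) and Benjamini-Hochberg adjustment over all of them, at 0.05. The procedure was tested on simulated data. The brightest probe stood for a gene with several.

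The 10 genes, the lists and the naming rule were chosen with earlier results of these data known. Named are the 10 genes, the 4 eIF2 kinases, the 3 largest differences of each pathway list and the nearest profile of each of the 10; others are said to be chosen after their values were seen. Mthfd1l, Iars2 and Cyp19a1 were not analysed here. Alternatives covered background correction, scaling, the filter on dim probes, the deposited table, array weights, slide row, replicate number and each array left out. The joint omission of control array 1 and PMSG array 4 and the within-array ratios were added after seeing the data. Same-numbered arrays deviated with correlations of -0.02 to 0.18. Arrays of 4 against 4 limit the precision.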

Additional observations from a re-analysis of the deposited data

Results flagged for a closer look

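Among 80 groups of 4 arrays examined for the named genes, 6 held an array far from the other 3 (a gap to its neighbour, as a share of the group's range, above Dixon's 95% critical value), where chance alone gives about 4. None of these was one of the 10 genes.

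PMSG array 4 was lowest for Ppp1r15b, at -4.67 against -3.98 to -3.96 on the other 3 arrays of its label (gap 0.974 of the range). It was also lowest for Sel1l, at -3.38 against -3.11 to -3.05 (gap 0.839). Control array 4 was lowest for Bcat1, at 3.24 against 3.59 to 3.64 (gap 0.877), and for Nupr1, at 3.46 against 3.54 to 3.56 (gap 0.855). Control array 3 was lowest for Asnsd1, at 2.40 against 2.59 to 2.62 (gap 0.888), and control array 1 for Yars, at -0.27 against -0.21 to -0.20 (gap 0.924). The Nupr1 and Yars gaps are large as a share of the range because the other 3 arrays lie within 0.02 of each other on the log2 scale.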

How the results depend on the processing

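The count of called genes among the 10 was 6 under every scaling, background, filter and block alternative run on all 8 arrays, and 6 to 7 when single arrays were left out. With 2 arrays per label it was 3 within slide row 1 and 0 within slide row 2. The count of called probes was 6524 to 11301 when single arrays were left out. The replicate block, which is no pairing here, gave 7346 probes and 6 of the 10 genes, and lowered the eIF2 list from 5 to 3, the paralogs from 1 to 0 and the mitochondrial synthetases from 8 to 5. Normexp background correction gave 5 mitochondrial synthetases. Paralogs called numbered 2 after quantile normalization (Asnsd1 not among them), 3 after median centring, 3 with array weights and 2 with slide row as a block. Without control array 1 and PMSG array 4 together, the eIF2 list gave 2 and the mitochondrial synthetases 4. With single arrays left out the eIF2 list gave 3 to 5, the paralogs 0 to 2 and the mitochondrial synthetases 4 to 8. The cause was not tested. Among values of single named genes under all alternatives, 726 kept their side of the threshold, 61 lost and 12 gained a call, and 0 called values changed sign. Another probe in place of the brightest could not be tried for the 10 genes, which have 1 each. Requiring all probes of a gene to agree left the same count of 6.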
